A study of Mus musculus with 2 samples.

Results

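Urothelial and epithelial genes were followed in ureters of Tbx2-GOF and control mouse embryos at E13.5 (the embryonic day), as a set of 32 genes chosen by name: 5 uroplakins, 6 keratins, 6 genes of cell junctions, 8 transcription factors and 7 other genes of epithelial cells. Their names were looked up among the non-control probes of the array, where 41 of 39429 probes matched. Tbx2-GOF ureters came from male NMRI embryos of the genotype Tbx18(cre/+);Hprt(Tbx2/Y). Control ureters came from male NMRI embryos of the genotype Tbx18(+/+);Hprt(Tbx2/Y). Both genotypes therefore carried Tbx2 at Hprt, a locus on the X chromosome, and they differed by cre at 1 Tbx18 allele, which leaves the Tbx2-GOF embryos with a single normal Tbx18 allele. There were 2 two-colour arrays with swapped dyes, and each held 1 Tbx2-GOF extract and 1 control extract. The Tbx2-GOF extract carried AlexaFluor647 on array 1 and AlexaFluor555 on array 2, and the control extract the other dye. How many embryos went into an extract, and whether each array had embryos of its own, is not stated in the labels. The p-values rest on the spread between 2 arrays, taken for a gene together with a spread shared across all genes. This spread may therefore be technical.

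The urothelium is the epithelium that lines the ureter and bladder. At this stage the ureteric epithelium is an immature tube that grows out of the nephric duct, and the Tbx18-expressing mesenchyme wraps around it. TBX2 is a T-box transcription factor that acts mainly as a repressor, and a Tbx18-driven cre acts mainly in the mesenchyme. Uroplakins build the plaques on the surface of superficial urothelial cells, where UPK1A pairs with UPK2 and UPK1B pairs with UPK3A. Keratins form the intermediate filaments of epithelial cells, and E-cadherin, EPCAM and claudins hold neighbouring cells together. GRHL, ELF, GATA, FOXA and p63 factors are known regulators of epithelial and urothelial genes.

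The probes of the genes that stood farthest from an equal level in both genotypes are shown by their first 30 of 60 bases, because the values of these genes rest on them, with no part in capitals. The Trp63 probes are shown as a pair because they gave different values.
Upk2 probe: cccactgcaatcctgccaacactgatttat
Upk3a probe: gctttgtggacatgggcagttctgatgggg
Krt15 probe: atcagtgtggaggaatcagtggatggaaaa
Gata3 probe: ttaaggaatatagggggattaaagtatgga
Trp63 upstream probe: acacgatcgaaacgtacaggcagcagcagc
Trp63 downstream probe: caaaaggtactttcttatagacatgatact
All are written 5′ to 3′ as the scanner files list them. On mm9 the Upk2 probe lies on the minus strand at chr9:44260822-44260881, and the Upk3a probe on the plus strand between chr15:84851819-84852720, a span of 902 bases that is longer than the oligonucleotide. The Krt15 probe is at chr11:99993331-99993390 and the Gata3 probe at chr2:9779551-9779610, both on the minus strand. The Trp63 probes are at chr16:25871159-25871218 and chr16:25892012-25892071 on the plus strand, 20.8 kb apart. No annotation of mm9 was used, so exon and UTR positions are not given.

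All 32 genes had a probe well above background in both genotypes on both arrays, and 38 of the 41 probes were kept. The 3 others were a second Krt5 probe that was not well above background in any channel, a second Grhl2 probe that was above it on 1 array in each genotype, and a second Esrp1 probe that the scanner software flagged as an outlier on array 2. The 5 uroplakins and all 10 genes of a ureteric mesenchyme list, Tbx18 included, were measured. All 8 genes of a liver list and all 6 of a skeletal muscle list were measured too, so this does not check the labelled tissue. Tbx2 itself was at log2 ratios of 0.04 and 0.56 on arrays 1 and 2 (adjusted p = 0.711), and since the labels do not say whether its probe reads the Hprt allele, it checks nothing about them. On arrays 1 and 2, 66.7% and 72.7% of probes were well above background in the Tbx2-GOF channel and 70.5% and 66.4% in the control channel. Both arrays lay on 1 slide, so there was no slide batch to test. Each log2 ratio sets Tbx2-GOF over control and is given for array 1 and array 2 in that order, or as their mean ± SD, with the p of limma adjusted over all 21097 genes by the Benjamini-Hochberg method. In whole ureters, fewer cells of a type and less RNA per cell cannot be told apart.

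The means of 87.5% of the 32 genes lay within 1.5-fold of an equal level in Tbx2-GOF and control ureters, against 96.7% of all genes. Of the 32 genes 1 fell and 0 rose at an adjusted p under 0.05, where 0.640% of all genes passed the test (0.280% lower and 0.360% higher), and 9 of 32 had an unadjusted p under 0.05, against 9.34% of all genes. The gene that fell was Upk3a. A further 3 genes, Upk2, Krt15 and Gata3, were at least 1.5-fold higher on both arrays without passing the test, where 0.825% of all genes were that much higher and 0.545% that much lower. In either direction these were 4 of the 32 genes and 1.37% of all genes. The median log2 ratio was 0.14 over the 32 genes (0.14 on array 1 and 0.08 on array 2), beside -0.001 over all genes tested. The lower and upper quartiles were -0.068 and 0.326 over the 32 genes, and -0.091 and 0.102 over all genes. Apart from Upk3a, Upk2, Krt15 and Gata3, the means ran from -0.41 (Upk1b) to 0.49 (Cldn3).

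**Figure D1:**
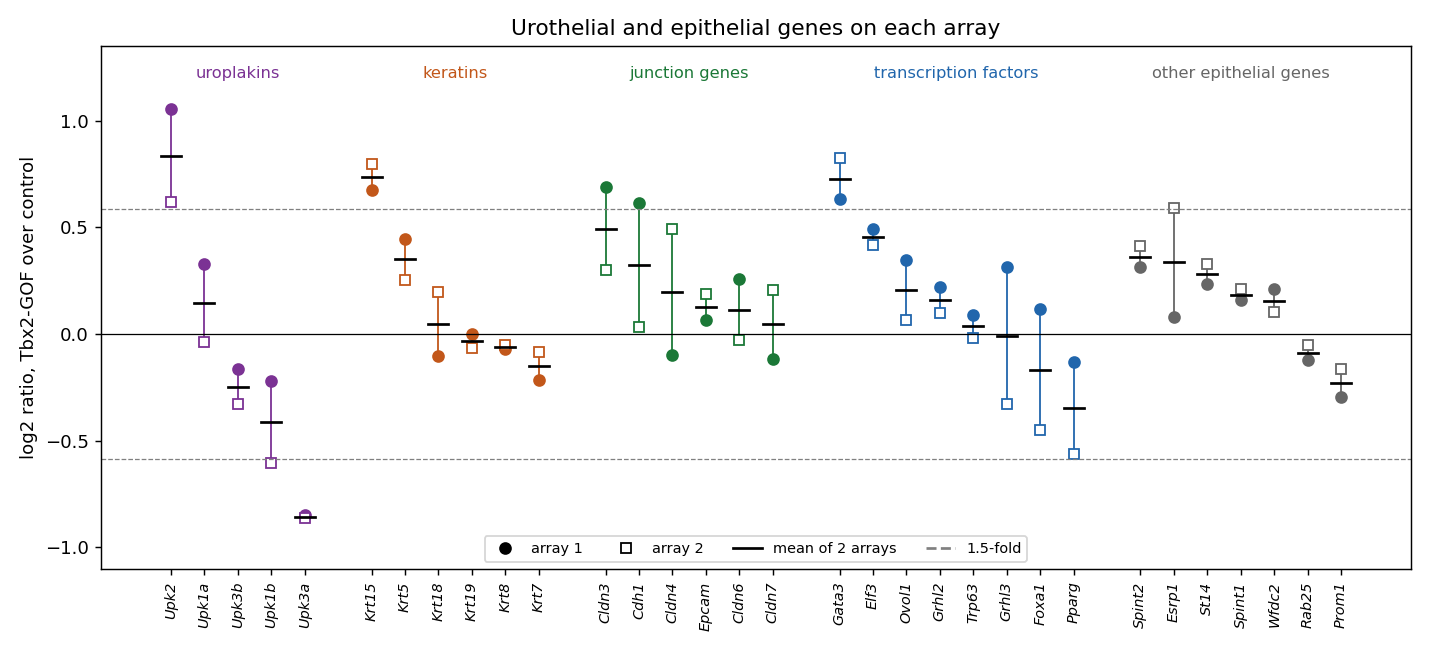
Log2 ratio of Tbx2-GOF over control for the 32 genes, by class. Filled circles are array 1, open squares array 2, black bars their mean and dashed lines mark 1.5-fold. Upk2 (1.05 and 0.62), Krt15 (0.67 and 0.80) and Gata3 (0.63 and 0.83) lie above the upper line on both arrays, and Upk3a (-0.85 and -0.86) lies below the lower one.

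Among the uroplakins Upk3a, which encodes the partner of UPK1B, fell and was 1.81-fold lower in Tbx2-GOF ureters. Its normalized log2 intensity was 7.37 and 8.90 in the Tbx2-GOF extracts and 8.22 and 9.76 in the control extracts on arrays 1 and 2. The levels of the genotypes overlap, since both extracts of array 2 were higher than both extracts of array 1, yet the Tbx2-GOF extract was the lower one on each array. Its mean signals before normalization, read in different dyes, were 207.6 and 438 in Tbx2-GOF and 243.9 and 919.8 in control. Those of array 1 lay below the median raw signals of that array (401.9 and 301.5). The close match of the ratios below was thus seen after normalization. The log2 ratios were -0.85 and -0.86 (-0.86 ± 0.01, SD, n = 2; adjusted p = 0.0450). That adjusted p lies near the threshold and crossed it in several settings, given below.

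Upk2, which encodes the partner of UPK1A, had ratios of the opposite sign. Its normalized log2 intensity was 7.81 and 7.60 in the Tbx2-GOF extracts, against 6.76 and 6.98 in the control extracts. Both Tbx2-GOF extracts were above both control extracts, which held for 18.2% of all genes. The log2 ratios were 1.05 and 0.62 (0.84 ± 0.31, SD, n = 2, limma adjusted p = 0.0715). Before normalization its mean signals, read in different dyes, were 275 and 160 in Tbx2-GOF and 79.9 and 160 in control. The size of its ratio depended on the processing. It was 0.83 with no background correction, 1.26 with the normexp offset at 0, and 1.70 with the processed signals of the scanner software (adjusted p = 0.162), which differ in background, detrending and dye steps at once. Over all settings it lay between 0.83 and 1.70, at adjusted p from 0.0355 to 0.516. The log2 ratio of Upk2 exceeded that of Upk3a by 1.90 on array 1 and 1.48 on array 2. Upk2 had the highest and Upk3a the lowest mean of the 32 genes, so the gap of their means is by construction the widest in the set.

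The other uroplakins had smaller ratios. Upk1b, a tetraspanin gene whose product pairs with UPK3A, was at -0.22 and -0.60 (-0.41 ± 0.27, adjusted p = 0.372). Upk3b, a relative of Upk3a that mesothelial cells also express, was at -0.16 and -0.33 (-0.25 ± 0.12, adjusted p = 0.706). Upk1a, the tetraspanin gene whose product pairs with UPK2, was at 0.33 and -0.04 (0.15 ± 0.26, adjusted p = 0.964). Of the 5 uroplakins, 3 were thus below 0 on both arrays, 1 above 0 on both and 1 of opposite signs, and their median was -0.25. Over all genes these shares were 25.1%, 26.1% and 48.8%.

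The Upk1b probe was spotted 10 times on each array, which gives the technical error of a single spot. Its spots ran from -0.37 to -0.05 on array 1 and from -0.73 to -0.51 on array 2, with spot SDs of 0.09 and 0.08. The ranges of the arrays do not overlap, so the gap between the arrays was larger than the spread among spots. Mesothelial genes were measured beside Upk1b and Upk3b, since that cell layer also expresses them. All 9 genes of the mesothelium list were measured, 1 rose (Rspo1, 1.21 ± 0.13, adjusted p = 0.0237) and 0 fell, with a list median of 0.09. On both arrays 4 of the 9 were above 0 and 3 below 0, where 26.1% and 25.1% of all genes were. Those above were Rspo1, Aldh1a2 (0.54 and 0.88), Msln (0.32 and 0.09) and Cldn15 (0.11 and 0.06). Those below were Lrrn4 (-1.23 and -0.29), Muc16 (-0.43 and -0.19) and Bnc1 (-0.30 and -0.01). Wt1 (-0.02 and 0.21) and Gpm6a (-0.04 and 0.07) had opposite signs. Apart from Rspo1, these genes were named after their values were seen. The summed intensity of the list was 125570 to 131462 in Tbx2-GOF and 73723 to 95756 in control, but Aldh1a2 held 78.6% to 85.1% of it. Without Aldh1a2 the sum of the other 8 genes was 18737 to 19611 in Tbx2-GOF and 15754 to 18732 in control. Their part in the uroplakin values was not tested.

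**Figure D2:**
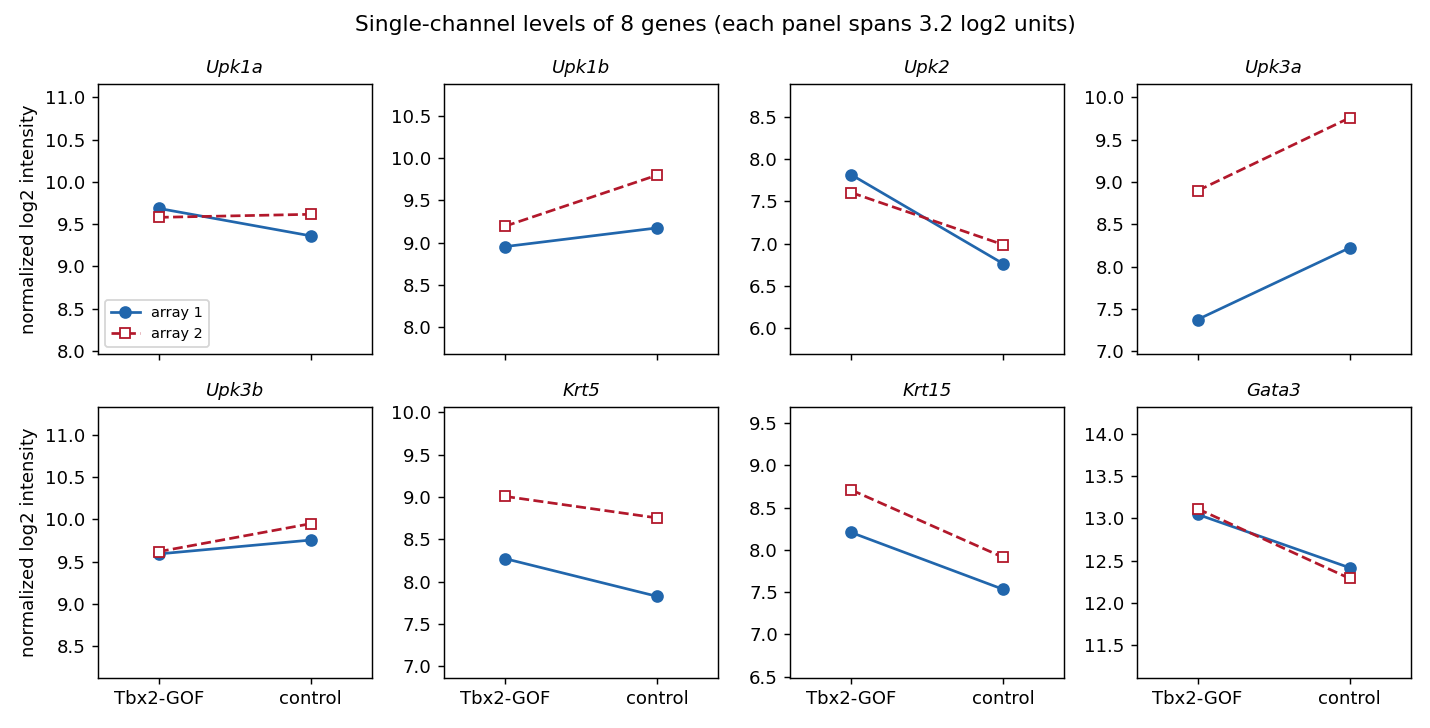
Normalized log2 intensity of the 5 uroplakins, Krt5, Krt15 and Gata3 in the Tbx2-GOF and control channel of each array, with lines joining the extracts of 1 array. For Upk3a the lines of the arrays run in parallel at different heights (7.37 and 8.22 on array 1, 8.90 and 9.76 on array 2), and for Upk2, Krt15 and Gata3 both Tbx2-GOF points lie above both control points.

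Of the 6 keratin genes 0 passed the test, and those of simple epithelia lay near an equal level in both genotypes. Krt8 and Krt18, the partner keratins of simple epithelia, were at -0.07 and -0.05 and at -0.11 and 0.20. Krt19, another keratin of simple epithelia and of urothelium, was at 0.00 and -0.06. Krt7, which marks ducts and urothelium, was at -0.22 and -0.08. These 4 genes had means between -0.15 and 0.05, each with an adjusted p of at least 0.937.

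Krt15, a keratin of basal cells in stratified epithelia, was the highest keratin ratio. It had normalized log2 intensities of 8.21 and 8.71 in the Tbx2-GOF extracts, against 7.53 and 7.91 in the control extracts, so the genotypes did not overlap. Its log2 ratios were 0.67 and 0.80 (0.74 ± 0.09, SD, n = 2; 1.66-fold), and it did not pass the test (adjusted p = 0.0696). Krt5, which basal cells also make, had intensities of 8.27 and 9.01 in Tbx2-GOF and 7.83 and 8.75 in control, with overlap. Its ratios were 0.45 and 0.26 (0.35 ± 0.13, adjusted p = 0.431). The median of the 6 keratins was 0.01, with 2 above 0 on both arrays, 2 below and 2 of opposite signs (26.1%, 25.1% and 48.8% of all genes).

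Junction genes had a median of 0.16, and 0 of 6 passed the test. Cldn3, a tight-junction claudin gene, was at 0.69 and 0.30 (0.49 ± 0.27, adjusted p = 0.252), with intensities of 12.63 and 12.69 in the Tbx2-GOF extracts and 11.94 and 12.39 in the control extracts. Both Tbx2-GOF extracts were higher. Epcam, the gene of the epithelial cell adhesion molecule, was at 0.07 and 0.19 (adjusted p = 0.974). Cldn6, a claudin of embryonic epithelia, was at 0.26 and -0.03, Cldn7 at -0.12 and 0.21, and the brighter of the Cldn4 probes at -0.10 and 0.49, so these claudins had opposite signs on the arrays.

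Cdh1, which encodes E-cadherin, showed how far the arrays could differ at a well-measured gene. Its probe was spotted 10 times and the log2 ratio was 0.61 on array 1 (spots from 0.54 to 0.68) and 0.03 on array 2 (spots from -0.02 to 0.11). The mean was 0.32 ± 0.41 (adjusted p = 0.684), while the spot SDs were 0.05 and 0.04. The arrays thus differed by more than their spots did, and extract and dye orientation cannot be told apart here.

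Of the 8 transcription factor genes 0 passed the test, and Gata3 was the highest. GATA3 is a zinc-finger factor of urothelium and of the nephric duct, and also of developing sympathetic neurons. Its normalized log2 intensity was 13.05 and 13.11 in the Tbx2-GOF extracts, against 12.42 and 12.29 in the control extracts, so the genotypes lay apart. The log2 ratios were 0.63 and 0.83 (0.73 ± 0.14, SD, n = 2; 1.66-fold; adjusted p = 0.0728). This ratio barely moved with the processing, from 0.72 to 0.73.

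Most of the genes listed for other cells that make Gata3 were also higher. In the neural and Schwann list all 8 genes were measured, Fabp7 and Th rose (1.57 ± 0.25 and 1.34 ± 0.57, adjusted p = 0.0190 and 0.0431) and 0 fell. Its median was 1.16 but differed between the arrays, at 0.595 on array 1 and 1.745 on array 2. Its summed intensity was 79910 to 82291 in Tbx2-GOF and 31131 to 47813 in control. In the list of the Wolffian duct, ureteric tip and collecting duct all 12 genes were measured and 0 passed the test. On both arrays 9 were above 0, where 26.1% of all genes were, and 2 had opposite signs. Wnt11 (-0.26 and -0.16), named after its values were seen, was below 0 on both. The median of this list was 0.47, and its summed intensity 28767 to 29005 in Tbx2-GOF and 24310 to 24467 in control. Ret (0.61 and 1.89), Etv4 (0.67 and 0.79) and Calb1 (0.74 and 0.72) were at least 1.5-fold higher on both arrays. The part of these cells in the Gata3 value was not tested.

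The other factors had smaller ratios or differed between the arrays. Elf3, an ETS factor of differentiating epithelia, was at 0.49 and 0.42 (0.45 ± 0.05, adjusted p = 0.230), and both Tbx2-GOF extracts (9.68 and 9.86) were above both control extracts (9.19 and 9.45). Grhl2, a grainyhead-like factor that drives epithelial adhesion genes, was at 0.22 and 0.10 and Ovol1, a zinc-finger factor of epithelia, at 0.35 and 0.07. Grhl3, a grainyhead-like factor of terminally differentiating urothelium, was at 0.32 and -0.33. Foxa1, a forkhead factor of urothelium, was at 0.12 and -0.45. Grhl3 and Foxa1 thus had opposite signs on the arrays, and their means (-0.01 ± 0.46 and -0.17 ± 0.40) lay within the array spread of 0.

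Pparg, the nuclear receptor that promotes urothelial differentiation, was at -0.13 and -0.56 (-0.35 ± 0.31, adjusted p = 0.556). Of its 10 spots 9 entered the mean on each array, from -0.25 to 0.01 on array 1 and from -0.62 to -0.52 on array 2. The spots of array 2 were all below those of array 1, as for Upk1b.

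Trp63, the gene of p63 in basal epithelial cells, makes transcripts that end in different 3′ exons, and its probes disagreed. The upstream probe shown above was at 0.09 and -0.02 (0.04 ± 0.08, adjusted p = 1 over probes), with intensities of 10.50 and 10.07 in Tbx2-GOF and 10.41 and 10.09 in control. The downstream probe was at -0.62 and -0.52 (-0.57 ± 0.07, adjusted p = 0.162 over probes), with intensities of 6.92 and 7.44 in Tbx2-GOF and 7.54 and 7.96 in control. Only the downstream probe was lower on both arrays, by 0.71 and 0.50 more than the upstream probe, and the difference between probes was not tested. Before normalization the mean signals of the downstream probe were 164 and 145 in Tbx2-GOF and 147 and 290 in control. With the mean of both probes Trp63 was at -0.27 (adjusted p = 0.621).

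The probes of other genes differed less. Among the 6 genes with more than 1 kept probe, Trp63 was the single one whose probes had opposite signs in the mean, at a gap of 0.61. The gap was 0.02 for Spint2, 0.06 for Cldn4 and Spint1, 0.08 for Wfdc2 and 0.11 for Prom1.

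The 7 other epithelial genes had a median of 0.18 and 0 passed the test. Spint2, a membrane-bound inhibitor of serine proteases, was at 0.31 and 0.41 with its brighter probe and at 0.34 and 0.42 with the other (adjusted p = 0.381 for the brighter). Spint1, a related inhibitor gene, was at 0.16 and 0.21. St14, which encodes matriptase, the protease both inhibitors act on, was at 0.23 and 0.33 (adjusted p = 0.603). For each of these 3 genes both Tbx2-GOF extracts lay above both control extracts, which held for 18.2% of all genes. Their mean differences were 1.14-fold to 1.29-fold.

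Esrp1, an epithelial splicing regulator, was at 0.08 and 0.59 (0.34 ± 0.36, adjusted p = 0.619). Its other probe, read on array 1 alone, was at 0.15 there. Wfdc2, a secreted protein of many epithelia, was at 0.21 and 0.10. Rab25, a small GTPase of epithelial recycling, was at -0.12 and -0.05. Prom1, a membrane protein of the apical surface, was at -0.29 and -0.16 with its brighter probe and at -0.63 and -0.05 with the other.

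Across the set, 15 of the 32 genes were above 0 on both arrays (26.1% of all genes), 8 were below 0 on both (25.1% of all genes) and 9 had opposite signs (48.8% of all genes). Both Tbx2-GOF extracts were above both control extracts for 13 genes and below them for 2, where 18.2% and 16.3% of all genes were. Over the 32 genes the ratios of the arrays correlated at Pearson's r = 0.678 and Spearman's rho = 0.636, beside 0.308 and 0.125 over all genes. These are descriptions across genes that share extracts and arrays, and genes are not independent replicates. The median SD between the arrays was 0.13 for the 32 genes and 0.14 for all genes.

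**Figure D3:**
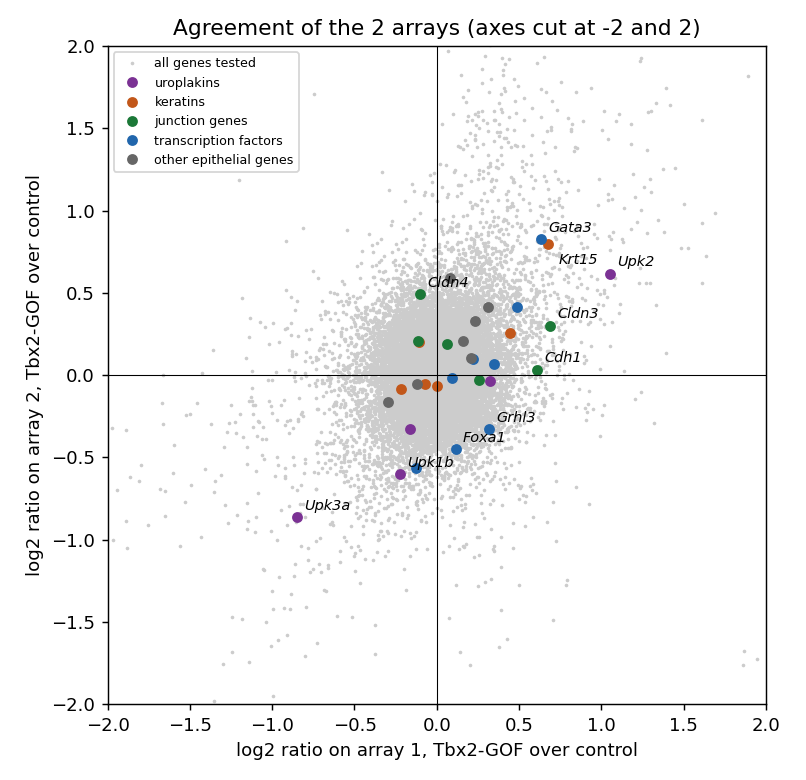
Log2 ratio on array 1 against array 2 for all 21097 genes tested (grey) and for the 32 genes by class (coloured), with axes limited to values between -2 and 2. Upk2, Krt15 and Gata3 lie at the upper right and Upk3a (-0.85 and -0.86) at the lower left, whereas Grhl3 (0.32 and -0.33) and Cldn4 (-0.10 and 0.49) lie on opposite sides of 0.

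Of 50 more genes of urothelium, junctions, epithelial factors and basement membrane adhesion, 45 were measured and 0 rose or fell by limma at an adjusted p under 0.05. There were 10 of 45 (22.2%) at an unadjusted p under 0.05, against 9.34% of all genes, and 0 at least 1.5-fold apart on both arrays. Their median log2 ratio was 0.09, with values from -0.57 to 0.47. The lowest was Cldn8, a claudin of the collecting duct, at -0.52 and -0.62 (adjusted p = 0.138), and the highest was Tfap2a, an AP-2 factor of surface epithelia, at 0.35 and 0.60 (adjusted p = 0.237), both named after their values were seen.

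Several lists of other cells had larger median ratios. Among 8 genes of nephron progenitors and early nephrons, Six2 (1.85), Wnt4 (1.12) and Pax8 (0.95) rose and 0 fell, with adjusted p = 0.00624, 0.0398 and 0.0398, a list median of 0.57, and a summed intensity of 42352 to 43560 in Tbx2-GOF and 31532 to 33351 in control. Among 8 liver genes, Afp (-2.95), Alb (-2.15), Ahsg (-1.86), Serpina1a (-1.46) and Ttr (-1.11) fell and 0 rose, at adjusted p from 0.00241 to 0.0379, with a list median of -1.29 and a summed intensity of 2365 to 2529 in Tbx2-GOF and 5261 to 6582 in control (971 to 1007 and 3530 to 4569 without Apoa2, the brightest). Early nephrons and liver both hold epithelial cells that make Krt8 and Krt18. Skeletal muscle genes had a median of -1.61, with Chrna1 (-1.66) and Acta1 (-1.55) fallen among 6, and a summed intensity of 4798 to 14373 in Tbx2-GOF and 23810 to 27900 in control. Ureteric mesenchyme genes had a median of -0.15, with 0 of 10 past the test. The part of these cells in the epithelial values was not tested.

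The calls on single epithelial genes depended on how the intensities were processed. Upk3a passed the test in 7 of the 12 settings tried and had a log2 ratio between -1.09 and -0.80 in all of them. Its adjusted p was 0.157 with the software's processed signals, 0.158 with the deposited value table, 0.501 with median centring, 0.0542 with every kept probe tested by itself and 0.808 with a separate-channel model. Upk2 and Krt15 passed in 3 settings and Gata3 in 2, all upward: scaling between the arrays and no filter on dim probes for each of the 3, and the mean of the kept probes for Upk2 and Krt15.

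**Figure D4:**
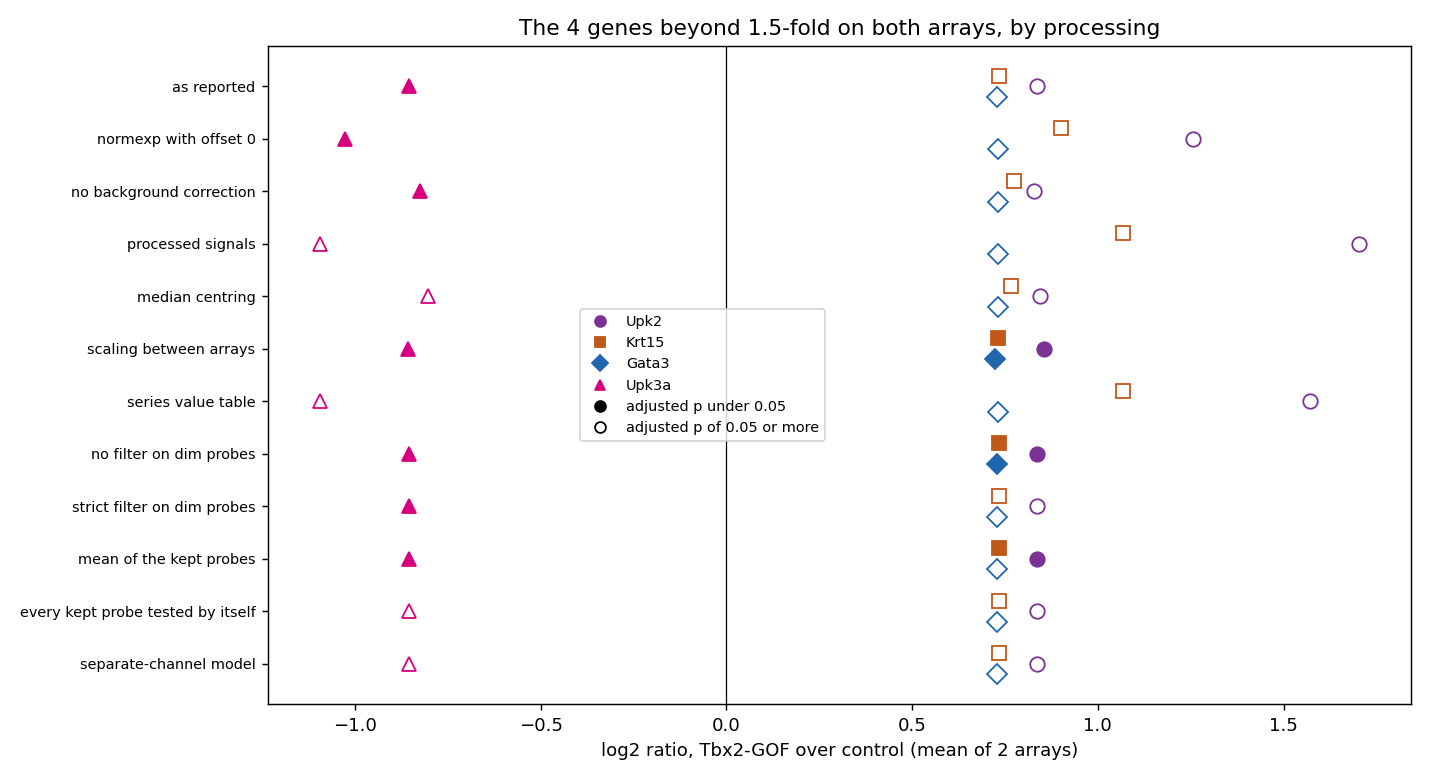
Log2 ratio (mean of 2 arrays) of Upk2, Krt15, Gata3 and Upk3a under the 12 settings, filled where the adjusted p was under 0.05. Upk3a stays between -1.09 and -0.80 and Gata3 near 0.73, while Upk2 spreads from 0.83 to 1.70 and Krt15 from 0.73 to 1.07.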

How the data were processed

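Arrays were read with the Agilent Feature Extraction software (version 10.7.3.1), as the submitters' processing notes name it. Per the file headers, the mean signal and the median local background of a spot are raw intensity values. Per the file headers, the processed signal is an intensity after the software's background, detrending and dye steps, and the software writes red over green as a log10 ratio. The authors deposited a value table of signed linear ratios without stating scale, centring or direction. Its values were Tbx2-GOF over control, since 99.2% and 98.7% of probes above background in both channels matched the dye-turned log10 ratio within 0.01. Its median was 1 on both arrays, and its centring was not stated.

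Each array held 43020 spots for 39429 probes, 209 and 391 of them flagged, and 0 saturated. Median raw signals were 402 and 326 in Tbx2-GOF and 302 and 390 in control. The number of arrays limits the precision.

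With limma 3.58.1 in R 4.3.3, intensities were corrected by normexp (offset 50) and loess (span 0.3). Ratios were turned by the labelled dye, spots of 1 probe averaged, and a probe kept where at least 1 genotype was well above background on both arrays (26471 probes). A gene was its brightest kept probe. lmFit and eBayes were two-sided, at an adjusted p under 0.05. Single-channel levels followed Aquantile normalization, which keeps each ratio. Symbols were updated through RefSeq accessions, which matched 26412 probes (67.0%). In draws of simulated data where the prior degrees of freedom were overestimated, more unchanged genes were called than the threshold allows, so calls near it are uncertain. Changed genes were counted over all simulated sizes together, and the noise was set from the median squared SD between the arrays. The simulation therefore does not show how often small changes pass the test. All 32 members were named; of other lists, those past the test, else those 1.5-fold apart on both arrays, besides genes said to be named after their values were seen. Members and lists were chosen with earlier results of these data known.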

Additional observations from a re-analysis of the deposited data

How the results depend on the processing

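With limma at an adjusted p under 0.05, 1 of the 32 genes (Upk3a) passed as reported, and likewise with offset 0, with no background correction and with the strict filter on dim probes. The count was 0 with processed signals, with median centring, with the deposited value table, with every kept probe tested by itself and with the separate-channel model, where 9, 7, 9, 9 and 6 had an unadjusted p under 0.05. It was 4 with scaling between arrays and with no filter on dim probes, and 3 with the mean of the kept probes. Over all genes the calls numbered 135 as reported, 0 in the first 3 of those settings, 4 with the separate-channel model, 313 with scaling, 276 with no dim filter and 211 with the mean of the kept probes. The cause was not tested. The median log2 ratio of the 32 genes lay between 0.13 and 0.14 in the settings that used both arrays, and was 0.082 without replicate 1 and 0.137 without replicate 2. With 1 array there is no test. The prior degrees of freedom, estimated from all genes beside 1 residual degree, were 6.36 as reported, 3.65 to 3.86 with processed signals, median centring and the value table, and 7.2 to 8.32 in the settings with 3 or 4 calls.

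Over 352 values of single genes in 11 alternatives, 346 kept their direction. The exceptions were Grhl3 (-0.01 as reported), at 0.012 with no background correction, 0.018 with processed signals and with the value table, 0.019 with scaling and 0.03 with median centring, and Trp63, at -0.27 with the mean of its probes. The reported test is already paired, because each array pairs 1 Tbx2-GOF with 1 control extract and the ratio is that pair. No further paired analysis was run. A slide block was not run, since both arrays lay on 1 slide. Ratios of dim probes such as Upk2, and Upk3a on array 1, are limited by signal over background.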

Other observations

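The level of some urothelial genes differed between the arrays in both genotypes at once. Upk3a was higher on array 2 than on array 1 by 1.52 on the log2 scale in Tbx2-GOF and by 1.54 in control. The mean of these shifts, 1.53, was larger in size than that of 99.9% of all genes, whose median size was 0.11. Krt5 was higher on array 2 by 0.74 in Tbx2-GOF and 0.93 in control, Krt19 by 0.50 and 0.56, and Grhl3 by 0.26 and 0.90. In all, 26 of the 32 genes had a higher mean level on array 2, where 46.5% of all genes did. Of the 32 genes 19 were higher there in both genotypes, 2 were lower in both and 11 moved in opposite directions. Shares over all genes were not counted for these directions, so they do not show whether the 32 genes differ in this. Of the 5 uroplakins 3 were higher on array 2 in both genotypes, while Upk2 (-0.21 in Tbx2-GOF and 0.22 in control) and Upk1a (-0.11 in Tbx2-GOF and 0.26 in control) went in opposite directions. For Trp63 the same difference, array 2 minus array 1, was -0.43 in Tbx2-GOF and -0.32 in control. Whether such a shift lies in the spot or in the extracts cannot be told apart for probes spotted once. Upk1b, spotted 10 times, was higher on array 2 by 0.24 in Tbx2-GOF and 0.62 in control.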
